A study of Mus musculus with 27 samples.

Results

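The question was which effects of lamin B1 knockdown (KD) at 8 h of TGF-β treatment were gone by 24 h and which had newly appeared. For each gene, the KD minus control difference at 8 h was subtracted from the KD minus control difference at 24 h, on the log2(FPKM + 1) scale, and this difference of differences is called the interaction here. FPKM is a transcript's fragment count divided by its length and by the mapped fragments of the library. The interaction used 8 of the 27 samples of the series, 2 libraries each of control and KD cells at 8 h and at 24 h. Of 24247 genes in the deposited table, 11450 reached at least 1 FPKM in at least 2 of its 12 libraries and were tested. NMuMG cells are an epithelial line from mouse mammary gland, and they go through the epithelial-to-mesenchymal transition (EMT) when given TGF-β, here at 1 to 5 ng/ml. All 8 samples were NMuMG cells infected with a lentiviral shRNA, selected with puromycin and treated with TGF-β. Control cells carried an irrelevant shRNA and KD cells an shRNA against lamin B1, which lowers the lamin but does not delete it. The labels name a single lamin B1 shRNA, so an effect of lamin B1 and an effect particular to that shRNA cannot be told apart. Untreated control and KD cells (2 libraries each), parental RNA-seq (2 libraries per time point) and the lamin B1 ChIP-seq and ATAC-seq peaks of parental cells (1 list per time point) served for comparison.

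Lamin B1 is a structural protein of the nuclear lamina, the protein mesh under the inner nuclear membrane, and a part of it lies in the nuclear interior. In EMT, TGF-β signals through receptors and SMAD proteins, and epithelial cells lose junction and apical surface genes while they gain matrix and motility genes. Genes of a differentiated epithelium include those for the brush border, the cornified envelope and secreted proteins. Whether EMT lowered such genes here was not tested.

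The targeted gene followed the labels. Lmnb1 was measured at 32.8 and 32.1 FPKM in control cells and at 7.79 and 8.14 FPKM in KD cells at 8 h. At 24 h it was at 18.4 and 17.9 FPKM in control cells and at 4.37 and 7.52 FPKM in KD cells. The KD libraries lay below the control libraries at both times, and the interaction of Lmnb1 was 0.40 ± 0.26 (SE, n = 2 libraries per group, limma adjusted p = 0.504). No read counts came with the table. The relative depth estimated from its lowest values ranged from 79.0% to 112% of that of the first library. The replicate libraries correlated at 0.960 to 0.984 (Pearson's r over tested genes), and the lowest value belonged to the KD libraries at 24 h. The median gap between these KD libraries was 0.116 on the log2 scale, against 0.0411 to 0.0979 for the other 5 pairs. Epithelial identity was checked on Cdh1, which encodes E-cadherin and was present in all 8 libraries, at 51.6 and 52.1 FPKM in control cells and 83.1 and 84.1 FPKM in KD cells at 8 h. Of the marker lists of other cell types, 0 of 7 endothelial, 2 of 10 blood and immune and 2 of 9 stromal genes in the table passed the filter.

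Most KD effects called at 8 h had the same sign at 24 h. At 8 h, 4104 of the tested genes (35.8%) differed between KD and control cells, 2212 higher (19.3%) and 1892 lower (16.5%) in KD cells, and at 24 h 3241 genes (28.3%) differed, 1924 higher (16.8%) and 1317 lower (11.5%). The libraries of the 8 h comparison are not those of the 24 h comparison. In all, 2246 genes passed at both times, which is 54.7% of the 8 h genes and 69.3% of the 24 h genes, and 2240 of them had the same sign. Of the genes called at 8 h, 94.4% had the same sign at 24 h. A further 1858 genes passed only at 8 h and 995 only at 24 h. A gene that passes at 1 time and not at the other is not thereby shown to differ between the times. The direct test of the interaction called 19 of the first group and 2 of the second.

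The interaction passed for 35 of 11450 genes (0.306%), 9 higher (0.0786%) and 26 lower (0.227%), by limma with the Benjamini-Hochberg adjustment. At an unadjusted p under 0.05 the number was 1523 genes (13.3%). By class, 19 of the 35 genes had a KD effect called at 8 h and not at 24 h (gone), 2 had one called only at 24 h (new), 1 was called at both times with opposite signs (turned) and 13 were called at both times with the same sign and a different size (kept). With a KD effect of at least 1 on the log2 scale in the arm that was called, the classes held 12, 2, 0 and 10 genes. Small RNA genes made up 3 of the 35, which left 32 genes, 25 with a lower and 7 with a higher interaction. All 35 kept their sign when each of the 8 libraries was left out in turn, but this outcome was fixed beforehand. For all 35 the KD minus control differences at 24 h lay wholly on one side of those at 8 h, as for 34.2% of all tested genes. Leaving out 1 library cannot turn the sign of such a gene. The number of calls depended on 1 library above all. A group left with 1 library adds nothing to the estimated spread, so calls in such fits, here and below, rest on the spread of the other groups. For the KD libraries at 24 h this leaves out the pair with the widest gap (0.116). Without KD replicate 1 at 24 h, 2138 genes passed, and without KD replicate 2 at 24 h, 47 passed, while the other 6 omissions gave 17 to 23.

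**Figure D1:**
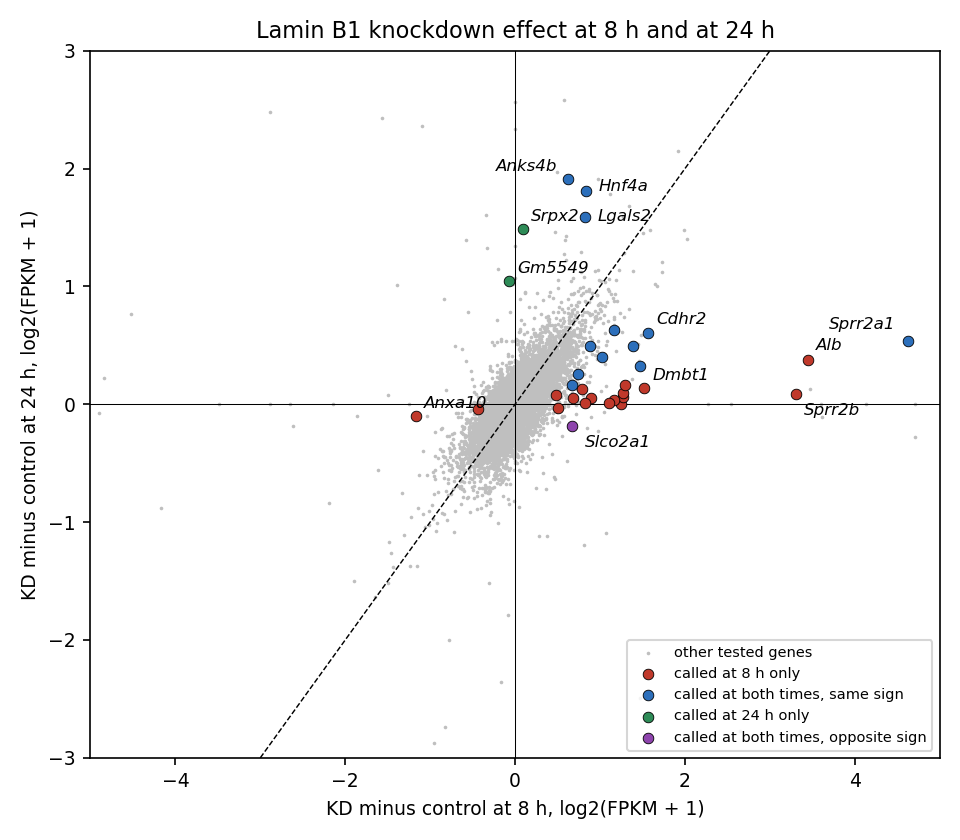
Each point is a tested gene, with the KD minus control difference in log2(FPKM + 1) at 8 h on the x axis and at 24 h on the y axis. The 32 called genes that are not small RNAs are coloured by class, the dashed line marks equal effects, and 38 other tested genes (37 of them small RNAs) lie outside the axes. Sprr2a1, Sprr2b and Alb sit far to the right with 24 h effects of 0.53, 0.09 and 0.37, and Anks4b, Hnf4a and Lgals2 sit above the line.

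All 25 genes with a lower interaction were higher in KD than in control cells at 8 h, and the difference had shrunk on the log2 scale by 24 h. Their median level was 3.08 FPKM in KD cells and 0.423 FPKM in control cells at 8 h, and 0.338 and 0.0658 FPKM at 24 h. The change from 8 to 24 h was called as a fall for all 25 in KD cells, where 51.8% of all tested genes changed between these times and 23.8% fell, and for 11 of the 25 in control cells, where 49.7% changed and 24.5% fell. Of the 25 genes, 9 reached 1 FPKM in fewer than 2 of the 6 control libraries and so passed the filter only with the KD libraries, where they had to be higher. The KD effect was not new at 8 h for most of them, since in untreated cells 21 of the 25 were already called higher in KD cells. Of all tested genes, 19.7% had a KD effect there and 10.6% were called higher in KD cells. These shares are no matched background. All 25 were higher in KD cells at 8 h, and 9 passed the filter only with the KD libraries, the untreated ones among them. By 24 h, 17 of the 25 were under 1 FPKM in both groups. At such levels the added 1 compresses a difference, and the FPKM ratio of KD to control cells gave a less uniform picture. That ratio was at least 2 for 19 of the 25 genes at 8 h and for 9 at 24 h, and it could not be formed at 24 h for 4 genes listed at 0 in both control libraries. It was smaller at 24 h than at 8 h for 19 of the other 21. With 0.1 added in place of 1, all 25 still had a negative interaction and 14 were called.

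The cornified envelope genes Sprr2a1 and Sprr2b showed the largest change of the 32 genes that are not small RNAs. These genes encode small proline-rich proteins that are cross-linked under the surface of stratified epithelia. Sprr2a1 (mm9 chr3:92019757-92026407, plus strand) was at 0.838 and 1.17 FPKM in control cells and at 46.6 and 50.4 FPKM in KD cells at 8 h. After 24 h it stood at 0.220 and 0.228 FPKM in control cells and at 0.885 and 0.664 FPKM in KD cells. The KD libraries were above the control libraries at both times, with a ratio of means of 48.2 at 8 h and of 3.46 at 24 h. The interaction was -4.10 ± 0.17 (SE, limma adjusted p = 1.33e-05). Sprr2b (chr3:92120627-92122007, plus strand) was at 0.295 and 0.256 FPKM in control cells and 10.5 and 12.8 FPKM in KD cells at 8 h. By 24 h the groups overlapped, at 0.0766 and 0.143 FPKM in control cells and 0.124 and 0.234 FPKM in KD cells, and the interaction was -3.22 ± 0.18 (adjusted p = 1.15e-04). The Sprr2 genes are close copies of each other, so reads could have been split among them in counting.

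Other Sprr genes of the same cluster did not pass the interaction test, and they are named here after their values were seen. Sprr2h was at 112 and 110 FPKM in control cells and 281 and 265 FPKM in KD cells at 8 h, and at 16.5 and 15.5 against 30.6 and 24.4 FPKM at 24 h. Its KD effect was called at both times (log2 1.29 and 0.74), and its interaction was -0.55 ± 0.24 (adjusted p = 0.377). Sprr1a, a related envelope precursor, had values in the other direction without passing, from 793 and 785 FPKM in control and 1062 and 1161 FPKM in KD cells at 8 h to 103 and 111 against 312 and 571 FPKM at 24 h (interaction 1.48 ± 0.31, adjusted p = 0.137). The KD effect on Sprr1a was called at 24 h (log2 1.97) and not at 8 h (log2 0.49).

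Promoter sequences are shown for the Sprr2 pair and for the 3 microvillar genes described next, because within each set the KD effect moved by different amounts or in different directions. Each run is 300 bases, 250 before and 50 after a RefSeq start site on GRCm38.p6, in lower case 5′ to 3′. Capitals mark matches, on either strand, to any of 11 short motifs searched.
Sprr2a1 (chr3:92215585-92215884, plus strand): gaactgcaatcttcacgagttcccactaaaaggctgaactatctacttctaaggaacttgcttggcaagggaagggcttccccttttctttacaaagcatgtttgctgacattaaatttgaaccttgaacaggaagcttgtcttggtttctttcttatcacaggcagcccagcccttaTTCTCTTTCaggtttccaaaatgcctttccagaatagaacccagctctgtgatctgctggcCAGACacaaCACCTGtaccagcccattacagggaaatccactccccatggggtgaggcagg
Sprr2b (chr3:92316455-92316754, plus strand): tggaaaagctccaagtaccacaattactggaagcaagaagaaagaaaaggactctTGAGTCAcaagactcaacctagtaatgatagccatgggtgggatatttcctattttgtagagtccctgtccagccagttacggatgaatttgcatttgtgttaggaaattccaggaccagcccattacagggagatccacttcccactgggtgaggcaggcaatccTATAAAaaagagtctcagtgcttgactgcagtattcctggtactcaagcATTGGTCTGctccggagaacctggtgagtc
Cdhr2 (chr13:54701213-54701512, plus strand): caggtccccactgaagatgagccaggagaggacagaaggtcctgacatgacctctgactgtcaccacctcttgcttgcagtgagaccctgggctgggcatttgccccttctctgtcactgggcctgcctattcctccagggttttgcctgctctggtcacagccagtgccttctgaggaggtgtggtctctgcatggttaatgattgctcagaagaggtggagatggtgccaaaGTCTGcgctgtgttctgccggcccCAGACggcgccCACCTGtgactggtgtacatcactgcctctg
Cdhr5 (chr7:141276737-141277036, minus strand): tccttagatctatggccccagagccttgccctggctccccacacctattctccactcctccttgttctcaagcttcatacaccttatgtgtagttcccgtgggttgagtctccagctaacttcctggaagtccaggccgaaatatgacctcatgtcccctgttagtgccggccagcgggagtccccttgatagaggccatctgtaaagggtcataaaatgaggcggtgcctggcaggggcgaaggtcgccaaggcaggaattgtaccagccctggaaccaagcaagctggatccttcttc
Anks4b (chr7:120173608-120173907, plus strand): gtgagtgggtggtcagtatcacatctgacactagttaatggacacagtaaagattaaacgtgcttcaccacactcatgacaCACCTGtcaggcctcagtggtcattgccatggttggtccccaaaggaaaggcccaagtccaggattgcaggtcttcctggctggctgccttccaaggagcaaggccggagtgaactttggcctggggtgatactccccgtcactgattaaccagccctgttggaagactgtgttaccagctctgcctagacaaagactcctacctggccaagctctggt

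The motifs searched were AP-1 (TGANTCA), SMAD (CAGAC), the ZEB and SNAIL E-box (CACCTG), the interferon response core (GAAANNGAA), the CCAAT box (CCAAT), the TATA box (TATAAA), the E-box (CACGTG), ATF4 (TGATGNAA), CRE (TGACGTCA), NRF1 (GCGCATGCG) and TEAD (GGAATG). Sprr2a1 held SMAD, ZEB and SNAIL E-box and interferon core matches, and Sprr2b held AP-1, TATA box, CCAAT box and SMAD matches, where the CCAAT box and SMAD letters overlap by 1 base. Cdhr2 held 2 SMAD matches and 1 ZEB and SNAIL E-box, Anks4b held 1 such E-box, and Cdhr5 held no match. Of all 27025 promoters in the table, 49.7% held SMAD letters, 20.03% CACCTG, 7.93% AP-1, 37.9% the CCAAT box, 14.2% the TATA box and 8.57% the interferon core. Aligned end to end, the Sprr2a1 and Sprr2b promoters were identical in 181 of 354 columns (51.1%). The last bases of the Sprr2a1 run nearly match bases of Sprr2b that lie just before its TATA box. The 2 runs are thus offset by the start sites listed. Neither this share nor the differing motif matches, the TATA box included, measures how far the 2 promoters differ. A promoter was listed for 17 of the 25 genes with a lower interaction (68.0%), so a comparison of motif shares or GC content over these genes was void.

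Of 3 genes of microvilli, Cdhr2 and Cdhr5 had a negative interaction and Anks4b a positive one, and Cdhr2 and Cdhr5 were chosen after their values were seen. Cdhr2 and Cdhr5 encode protocadherins that link the tips of neighbouring microvilli, and Anks4b encodes a cytoplasmic scaffold of the same brush border complex. Cdhr2 was at 0.222 and 0.235 FPKM in control cells and 2.73 and 2.52 FPKM in KD cells at 8 h, and at 0.0770 and 0.0723 against 0.681 and 0.594 FPKM at 24 h. KD cells were above control cells at both times, with a ratio of 11.5 at 8 h and 8.54 at 24 h, so the negative interaction of -0.95 ± 0.09 (adjusted p = 2.10e-03) belongs to the log2(FPKM + 1) scale and was not called with 0.1 added (-0.97, adjusted p = 0.172). Cdhr5 was at 0.410 and 0.448 FPKM in control and 1.37 and 1.55 FPKM in KD cells at 8 h, and its ratio was 3.40 at 8 h and 3.26 at 24 h, when its 4 libraries lay between 0.0393 and 0.161 FPKM. Its interaction was -0.66 ± 0.08 (adjusted p = 0.0194) and was likewise not called with 0.1 added (adjusted p = 0.259). Anks4b (mm9 chr7:127317372-127327230, plus strand) was at 16.6 and 16.5 FPKM in control and 26.1 and 25.7 FPKM in KD cells at 8 h. After 24 h it stood at 0.662 and 0.553 FPKM in control cells and at 4.79 and 5.31 FPKM in KD cells. It fell in both groups, by 27.2 times in control and 5.12 times in KD cells, so the ratio of KD to control widened from 1.57 to 8.31. The interaction of Anks4b was 1.29 ± 0.08 (adjusted p = 1.99e-04).

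Alb and Aldh3a1 also had a KD effect that was called at 8 h and not at 24 h, as had Apoa1, which is named after its values were seen. Alb encodes albumin, the main plasma protein made by hepatocytes. It was at 0.277 and 0.363 FPKM in control cells and 12.4 and 14.5 FPKM in KD cells at 8 h, a ratio of 42.0. By 24 h it was listed at 0 in both control libraries and at 0.337 and 0.255 FPKM in KD cells, and the interaction was -3.08 ± 0.28 (adjusted p = 1.86e-03). Untreated KD cells had 218 and 226 FPKM of Alb and untreated control cells 36.0 and 20.9 FPKM, so its level was highest before treatment in both groups. Apoa1, the main apolipoprotein of high-density lipoprotein, was at 0.0186 and 0.0203 FPKM in control and 0.796 and 0.819 FPKM in KD cells at 8 h, and at most at 0.0194 FPKM in any library at 24 h (interaction -0.81 ± 0.08, adjusted p = 3.17e-03). Aldh3a1, an aldehyde dehydrogenase, was at 2.50 and 2.74 FPKM in control and 6.82 and 6.78 FPKM in KD cells at 8 h. By 24 h its control libraries (0.427 and 0.280 FPKM) and KD libraries (0.511 and 0.221 FPKM) overlapped, and the interaction was -1.10 ± 0.16 (adjusted p = 0.0369), not called with 0.1 added (adjusted p = 0.245).

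Another 10 genes with a lower interaction and low levels are named after their values were seen, and they differed in what remained at 24 h. Dmbt1, a secreted scavenger receptor protein of mucosal surfaces, was at 0.315 and 0.387 FPKM in control and 2.82 and 2.93 FPKM in KD cells at 8 h. Its libraries lay between 0.00313 and 0.130 FPKM at 24 h, and its interaction was -1.39 ± 0.09 (adjusted p = 3.62e-04). The ratio of KD to control for Dmbt1 was larger at 24 h (17.8) than at 8 h (8.20), as was that of Clrn3, whose interaction was -0.84 ± 0.08. Gkn2, a stomach mucosal protein gene, was at 0.102 and 0.166 FPKM in control and 1.90 and 1.48 FPKM in KD cells at 8 h and was listed at 0 in all 4 libraries at 24 h. Psca, Ces2e, Ms4a8a, Phgr1 and Sptssb had interactions of -1.13 to -1.21, with control libraries between 0.0904 and 0.703 FPKM and KD libraries between 1.44 and 3.45 FPKM at 8 h. Of these 5 genes, the KD effect was called again at 24 h for Ces2e. Mlc1 (-0.62 ± 0.08) and the predicted gene Gm13889 (-0.90 ± 0.12) kept a called KD effect at 24 h. With 0.1 added, the interactions of Ces2e, Phgr1, Mlc1 and Gm13889 were not called (adjusted p = 0.130, 0.259, 0.259 and 0.228). Those of the others named in this paragraph were.

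Tspan8, Mafk and Ifi27l2b had a smaller KD effect at 24 h while each was still above 2 FPKM in every library. Tspan8, a tetraspanin of the epithelial surface, was at 70.1 and 74.0 FPKM in control and 105 and 101 FPKM in KD cells at 8 h. At 24 h the groups overlapped, at 33.9 and 36.9 FPKM in control and 32.7 and 36.4 FPKM in KD cells (interaction -0.54 ± 0.08, adjusted p = 0.0478). Mafk, a small Maf transcription factor, was at 22.3 and 22.7 FPKM in control and 36.4 FPKM in both KD libraries at 8 h, and at 25.6 and 23.6 against 28.3 and 27.2 FPKM at 24 h. KD cells stayed above control cells at both times, with a ratio of 1.62 at 8 h and 1.13 at 24 h (interaction -0.50 ± 0.07, adjusted p = 0.0253). Ifi27l2b, of an interferon-inducible family, had ratios of 2.54 and 1.76 (interaction -0.53 ± 0.08, adjusted p = 0.0478). Papss2, which makes the sulfate donor PAPS and is named after its values were seen, had ratios of 1.91 and 1.44 (interaction -0.39 ± 0.06, adjusted p = 0.0478). With 0.1 added, Mafk was still called (adjusted p = 0.035). Tspan8 (adjusted p = 0.070), Ifi27l2b (adjusted p = 0.099) and Papss2 (adjusted p = 0.085) were then not called. Tspan8, Mafk and Ifi27l2b were each called in 2 of the 8 fits that left out a library, and Papss2 in 1.

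Slco2a1, which encodes a prostaglandin transporter, was the single gene of the 35 whose KD effect turned. It was at 8.49 and 8.74 FPKM in control and 13.9 and 14.8 FPKM in KD cells at 8 h, so KD cells were higher. By 24 h it was at 13.7 and 13.5 FPKM in control and 11.999 and 11.7 FPKM in KD cells, so KD cells were lower. The KD effect was 0.67 ± 0.05 at 8 h (adjusted p = 6.14e-05) and -0.19 ± 0.05 at 24 h (adjusted p = 0.0208), and the interaction of -0.86 ± 0.07 (adjusted p = 1.01e-03) was called in all 8 fits that left out a library. Between 8 and 24 h the gene rose in control cells (log2 0.61) and fell in KD cells (log2 -0.25).

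Lama3 encodes the α3 chain of laminin-332, an epithelial basement membrane protein. It was at 0.406 and 0.318 FPKM in control and 1.25 and 1.14 FPKM in KD cells at 8 h, and between 0.0647 and 0.116 FPKM in the 4 libraries at 24 h (interaction -0.64 ± 0.09, adjusted p = 0.0216). That interaction was not called with 0.1 added (adjusted p = 0.245). Lama3 and Aldh3a1 were each called in 2 of the 8 fits that left out a library. Lama3 was the only called member of the extracellular matrix list, of which 35 genes were tested.

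The 7 genes with a higher interaction were more varied. Hnf4a, a nuclear receptor that controls liver and gut epithelial genes, was at 46.8 and 46.6 FPKM in control and 83.5 and 84.5 FPKM in KD cells at 8 h. By 24 h it had fallen to 5.65 and 5.79 FPKM in control cells and to 20.7 and 24.4 FPKM in KD cells. The KD to control ratio rose from 1.80 to 3.95, and the interaction was 0.97 ± 0.12 (adjusted p = 0.0194). Hnf4a was called in 2 of the 8 fits that left out a library. Lgals2, which encodes the gut lectin galectin-2, was at 1395 and 1384 FPKM in control and 2425 and 2493 FPKM in KD cells at 8 h, and at 63.6 and 60.9 against 190 and 189 FPKM at 24 h. It fell by 4.46 in control and by 3.69 in KD cells on the log2 scale, and its interaction was 0.77 ± 0.06 (adjusted p = 1.19e-03). For Hnf4a, Lgals2 and Anks4b the KD libraries were above the control libraries at both times, and all 3 genes also fell from 8 to 24 h in parental cells (log2 -1.78, -3.65 and -2.13).

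Anxa10 and Tpi1 were lower in KD cells at 8 h and no longer called at 24 h. Anxa10, an annexin of gastric epithelium, was at 15.3 FPKM in both control libraries and at 6.26 and 6.24 FPKM in KD cells at 8 h. By 24 h its 4 libraries lay between 0.0790 and 0.217 FPKM, and the ratio of KD to control was 0.408 at 8 h and 0.516 at 24 h. Its interaction of 1.07 ± 0.15 (adjusted p = 0.0288) was not called with 0.1 added (adjusted p = 0.275). Tpi1, the glycolytic enzyme triosephosphate isomerase, was at 454 and 437 FPKM in control and 335 and 325 FPKM in KD cells at 8 h. At 24 h the groups nearly met, at 244 and 249 FPKM in control and 237 and 243 FPKM in KD cells (interaction 0.39 ± 0.05, adjusted p = 0.0253). Tpi1 was the only called member of the glycolysis and hypoxia list, of which 26 genes were tested, and Tpi1 and Anxa10 were each called in 1 of the 8 fits that left out a library.

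The 2 genes with a new KD effect at 24 h were Srpx2 and the predicted gene Gm5549. Srpx2, which encodes a secreted sushi repeat protein, was listed at 0 in all 4 untreated libraries and was at most 0.0760 FPKM in any library at 8 h. At 24 h it was at 1.47 and 1.52 FPKM in control and 6.80 and 5.25 FPKM in KD cells, and the KD effect was called (log2 1.48 ± 0.09, adjusted p = 5.13e-05). The ratio of KD to control was 8.78 at 8 h, with both KD libraries above both control libraries at these very low levels, and 4.03 at 24 h, so the effect was new on the log2(FPKM + 1) scale and not as a ratio. Its interaction was 1.39 ± 0.13 (adjusted p = 2.10e-03) and was not called with 0.1 added (1.25, adjusted p = 0.180). Gm5549 was at 23.2 and 26.4 FPKM in control and 23.2 and 23.8 FPKM in KD cells at 8 h, where the groups overlapped. At 24 h it was at 2.54 and 2.20 against 5.27 and 6.66 FPKM (interaction 1.12 ± 0.14, adjusted p = 0.0162).

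**Figure D2:**
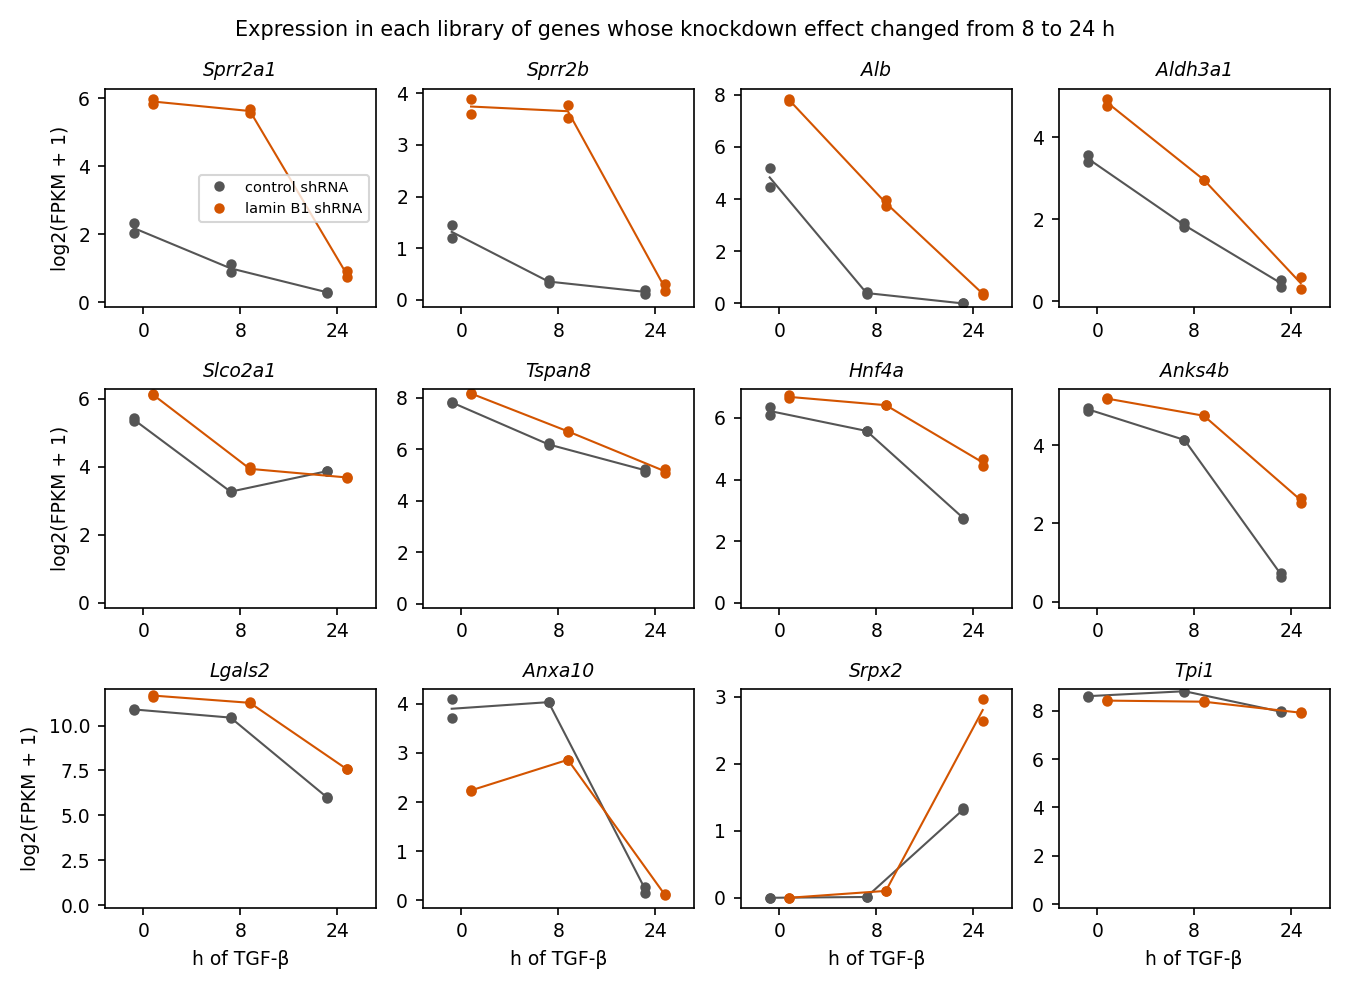
Each panel shows 1 gene, with hours of TGF-β on the x axis (evenly spaced, not to scale) and log2(FPKM + 1) on the y axis. Points are single libraries of control (grey) and KD cells (orange), and lines join the means of 2 libraries. Sprr2a1, Sprr2b and Alb keep a wide gap at 8 h that is nearly closed at 24 h, Hnf4a, Anks4b and Lgals2 keep a gap at 24 h, and Srpx2 separates at 24 h.

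The 3 small RNA genes among the 35 had very large values. Mir7024 was at 3809 and 4034 FPKM in control cells at 8 h and listed at 0 in the other 10 libraries, and Snord83b was at 529 and 1169 FPKM in control cells at 8 h and listed at 0 in the other 10. Snord104 was at 1666 and 3649 FPKM in control and 894 and 355 FPKM in KD cells at 8 h, and at 1196 and 2146 FPKM in control cells and 0 in both KD libraries at 24 h. Length-normalised values of such short genes can be large at few reads, so no fold change is given for them.

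A wider view took the 85 genes, small RNAs left out, whose KD effect was called at 8 h and was at least 1 on the log2 scale. At 8 h 68 were higher and 17 lower in KD cells. Their median effect, signed by the direction at 8 h, was 1.19 at 8 h and 0.80 at 24 h, and 83 of 85 had the same sign at 24 h. The effect was still at least 1 for 27 of them, and 23 were under 1 FPKM in both groups at 24 h. The genes were chosen by their 8 h values, so a smaller value in other libraries is partly built into the choice. The reverse selection gave 54 genes at 24 h with a median of 1.19, whose median at 8 h was 1.00. Without KD replicate 1 at 24 h the signed median of the 85 genes at 24 h was 0.74, and without KD replicate 2 it was 0.87.

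The EMT and lamina genes of interest to the study did not pass the interaction test. Fn1, which encodes fibronectin, was at 83.6 and 78.8 FPKM in control and 84.2 and 73.8 FPKM in KD cells at 8 h. At 24 h its KD libraries were at 415 and 942 FPKM and lay on either side of the control libraries at 469 and 541 FPKM (interaction 0.35 ± 0.42, adjusted p = 0.713). The KD effect on Cdh1 was 0.68 ± 0.10 at 8 h and 0.94 ± 0.10 at 24 h, higher in KD cells at both times (interaction 0.26 ± 0.15, adjusted p = 0.466). Vim, for the intermediate filament vimentin (0.04 ± 0.12, adjusted p = 0.885), Cdh2, for N-cadherin (-0.03 ± 0.06, adjusted p = 0.863), and the transcription factor gene Twist2 (0.03 ± 0.16, adjusted p = 0.949) had interactions within 1 standard error of 0. Twist1 did not reach the expression filter. Of the other lamina genes, Lmnb2 had an interaction of 0.18 ± 0.08 (adjusted p = 0.385) with KD effects of -0.68 and -0.50, Lmna one of 0.04 ± 0.08 (adjusted p = 0.845) and Emd, for emerin, one of 0.12 ± 0.07 (adjusted p = 0.468).

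The medians of 2 cell cycle lists moved in opposite directions from 8 to 24 h, and no member of them passed the interaction test. The lists were written from general knowledge of these pathways, but with earlier results of these data known. They are described by counts and medians, beside a median interaction of 0.02 over all tested genes. The mitosis list (35 genes) had a median KD effect of -0.33 at 8 h and -0.66 at 24 h, with 22 and 34 members called lower, against 16.5% and 11.5% of all tested genes, and 0 called higher. Its median interaction was -0.30, and 33 of 35 members lay below 0, against 5276 of all 11450 genes. The DNA replication list (38 genes) had a median KD effect of -0.65 at 8 h and -0.44 at 24 h, 36 and 31 members called lower, a median interaction of 0.20 and 34 members above 0, against 6174 of all tested genes. Ccnb1, the mitotic cyclin B1, was at 80.3 and 83.0 FPKM in control and 63.7 and 62.9 FPKM in KD cells at 8 h, and at 18.1 and 17.2 against 9.48 and 11.4 FPKM at 24 h (interaction -0.35 ± 0.13, adjusted p = 0.318). Pcna, the sliding clamp of DNA replication, was at 200 and 202 FPKM in control and 119 and 125 FPKM in KD cells at 8 h, and at 126 and 124 against 89.8 and 103 FPKM at 24 h (interaction 0.35 ± 0.11, adjusted p = 0.272). These 2 genes were chosen after their values were seen. Without KD replicate 1 or 2 at 24 h, the median interaction was -0.19 or -0.34 for mitosis and 0.28 or 0.12 for DNA replication.

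The lists of ribosomal proteins and of the respiratory chain had small positive medians, and no member of either passed the interaction test. Of 79 cytosolic ribosomal protein genes, 78 had an interaction above 0 (median 0.16), where 6174 of all 11450 tested genes did, and the median KD effect was -0.19 at 8 h, when 51 were called lower and 0 higher, and -0.03 at 24 h, when 7 were called lower and 2 higher. Of 77 genes of the respiratory chain and ATP synthase, 74 lay above 0 (median 0.14), with a median KD effect of -0.02 at 8 h and 0.11 at 24 h. At 8 h 6 of them were called higher and 10 lower, and at 24 h 29 higher and 1 lower. Of all tested genes, 19.3% were called higher and 16.5% lower at 8 h, and 16.8% and 11.5% at 24 h. The ribosomal counts at 24 h and the respiratory counts at 8 h were not above these shares. At an unadjusted p under 0.05, 839 of all 11450 genes had a positive interaction, 28 of the ribosomal and 28 of the respiratory genes among them. Without KD replicate 1 or 2 at 24 h, the median was 0.19 or 0.11 for ribosomal and 0.16 or 0.12 for respiratory genes. The cholesterol synthesis and uptake list (24 genes) had a median of 0.19, which was 0.35 without KD replicate 1 and 0.03 without KD replicate 2 at 24 h.

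The TGF-β feedback and direct target list (21 genes) had a median KD effect of 0.21 at 8 h, with 8 members called higher and 4 lower, where 19.3% and 16.5% of all tested genes were. At 24 h its median was -0.03, with 3 called higher and 4 lower, where 16.8% and 11.5% of tested genes were, so 7 of 21 was near the background. Its median interaction was -0.19, and 14 of 21 members lay below 0.

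The other lists are given by their median interaction, followed by the median without KD replicate 1 and without KD replicate 2 at 24 h. It was -0.14 (-0.12 and -0.16) for immediate early and AP-1 genes (25 genes) and -0.11 (-0.14 and -0.03) for the unfolded protein and heat shock list (28 genes). For p53 targets (25 genes) it was -0.09 (-0.14 and -0.05), and for extracellular matrix (35 genes) -0.06 (-0.0043 and -0.21). The epithelial list (19 genes) had 0.08 (0.24 and -0.02) and the mesenchymal list (19 genes) -0.03 (-0.0012 and -0.11), so leaving out 1 library turned the sign of the first. Glycolysis and hypoxia (26 genes) had 0.10 (0.13 and 0.07), the ATF4 stress list (31 genes) 0.13 (0.17 and 0.05) and the clustered histones (27 genes) 0.18 (-0.04 and 0.34). The mammary lineage lists rested on 3 basal genes, with 0.13 (0.21 and 0.05), and 5 luminal genes, with 0.22 (0.26 and 0.06). The medians of lamina and inner nuclear membrane (18 genes, 0.08), interferon response (14 genes, 0.03), NF-κB targets (21 genes, 0.02), actin, SRF and YAP (28 genes, 0.01), chromatin architecture (38 genes, 0.02) and RNA splicing (37 genes, -0.01) stayed within 0.1 of 0 when each of the 8 libraries was left out.

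**Figure D3:**
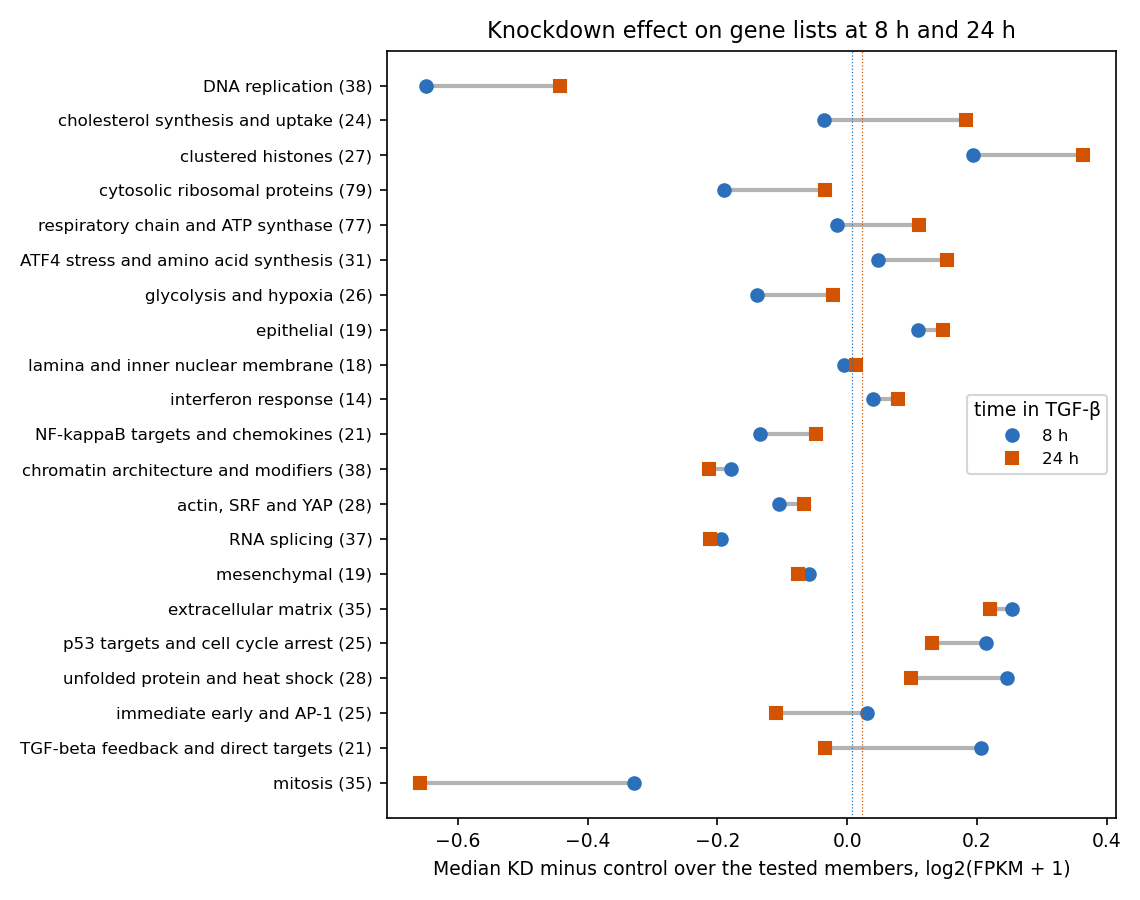
For each gene list with at least 14 tested members (number in brackets), the x axis gives the median KD minus control difference in log2(FPKM + 1) at 8 h (circles) and 24 h (squares), and dotted lines mark the medians of all tested genes. Lists are ordered by their median interaction, with DNA replication at the top and mitosis at the bottom, and the mitosis list moves from -0.33 to -0.66.

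The called genes were also set against peaks of parental cells, which the interaction did not use. A gene was lamin B1 + when a ChIP-seq peak lay between 2500 bp upstream of its start site (TSS) and its 3′ end on mm9, and intervals are 95% Wilson intervals that cover counting error only. The filter bears on these shares: 15 of the 25 genes with a lower interaction were under 1 FPKM in control cells at both 8 h and 24 h, and genes so weak in control cells entered mostly through other libraries, so a share below that of all tested genes is not a result about the interaction. Of the 25 genes, 23 could be placed. At 8 h 4 of them (17.4%, interval 6.98% to 37.1%) were lamin B1 +, against 5915 of 10413 placed genes (56.8%) that were tested and were not small RNAs. At 24 h the number was 3 (13.04%, 4.54% to 32.1%) against 44.4% of tested genes, and in untreated cells 5 (21.7%, 9.66% to 41.9%) against 33.7%. Of tested genes under 5 FPKM in control cells at both 8 h and 24 h, 46.8% were lamin B1 + at 8 h, 35.2% at 24 h and 25.2% in untreated cells. None of the 7 genes with a higher interaction had a lamin B1 peak at any of the 3 times, which allows a share of up to 35.4% by the Wilson interval. Slco2a1, Cdhr5 and Mafk were among the lower genes with a peak at 8 h, and Mafk (chr5:140267467-140278607) had a peak over its TSS at all 3 times.

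An ATAC-seq peak within 500 bp of the TSS was found in 2 of the 23 lower genes in untreated cells (8.70%, 2.42% to 26.8%), 1 at 8 h (4.35%, 0.772% to 21.0%) and 2 at 24 h (8.70%). Among all tested genes, which are mostly more strongly expressed, the shares were 56.7%, 46.4% and 84.3%. Among tested genes under 5 FPKM in control cells at both 8 h and 24 h, they were 38.3%, 32.1% and 66.4%. The filter bears on these comparisons as well. Tspan8 and Tpi1 had an ATAC peak over the TSS at 24 h only, and Lgals2 had one at 8 h and at 24 h. Anks4b had ATAC peaks over its TSS in untreated cells (chr7:127317135-127317812) and at 8 h, and none at 24 h. Hnf4a (chr2:163332544-163398646, plus strand) had one at all 3 times. Sprr2a1, Sprr2b, Alb and Cdhr2 had neither a lamin B1 nor a TSS ATAC peak at any time. The peaks came from parental cells and not from KD cells, 1 library per time, so no error between replicates is known.

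Lamin B1 + shares were also taken for the larger sets, with the KD effect called only at 8 h, at both times or only at 24 h. At 8 h they were 58.5% (56.1% to 60.8%), 56.2% (54.1% to 58.3%) and 53.7% (50.4% to 56.9%), beside 56.8% of tested genes. In untreated cells they were 35.0% (32.8% to 37.3%), 32.6% (30.7% to 34.7%) and 29.9% (27.0% to 33.0%), beside 33.7%. At 24 h they were 46.0% (43.7% to 48.4%), 43.4% (41.3% to 45.5%) and 40.2% (37.1% to 43.4%), beside 44.4%. The share was lowest for the genes called only at 24 h at each time, and its interval lay below the share of tested genes in untreated cells and at 24 h. With peaks within 500 bp of the TSS, the untreated share was 29.5% (27.4% to 31.7%) for genes called only at 8 h and 23.7% (21.0% to 26.5%) for those called only at 24 h, and these intervals did not overlap. At 8 h the intervals of these sets overlapped (46.8% to 51.5% against 40.95% to 47.4%). So did those at 24 h (36.2% to 40.8% against 31.2% to 37.3%). With only the higher scoring peaks they overlapped in untreated cells too (19.0% to 22.8% against 15.3% to 20.2%). There the interval of genes called only at 24 h held the share of tested genes (19.3%). Genes are not independent replicates, and the intervals cover counting error only.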

How the data were processed

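RNA-seq came from NMuMG cells that carried a control or a lamin B1 shRNA, at 0, 8 and 24 h of TGF-β, and the study's methods give 2 biological replicates per group. The authors deposited FPKM values with 1 column per library and no line of column names, so the columns follow the order in which the deposited description names them. The submitters' processing notes list Bowtie, TopHat, Cufflinks and the build mm9, without versions, and read totals were not given in the sources used here. The ChIP-seq and ATAC-seq peak lists that the authors deposited hold mm9 positions and a peak score.

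All values were taken to log2 after 1 was added to the FPKM, for genes at 1 FPKM or more in at least 2 of 12 libraries. A single limma 3.58.1 fit in R 4.3.3 held the group means of all 12 libraries (eBayes with a trend, no replicate block), and a gene was called where its p, adjusted by Benjamini-Hochberg, was under 0.05. Every adjusted p printed is from limma. The method was tested on simulated data. The members and gene lists were chosen with earlier results of these data known. Named genes were the lamina and EMT genes of the study, and up to 10 called genes in each direction that had a group mean of at least 5 FPKM and KD minus control differences without overlap between the times, with up to 5 per class by the same conditions, and up to 4 called members of each gene list. Others are named after their values were seen. Small RNAs were counted and not ranked. Some genes that met the rule are not reported here.

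Genes were placed with GENCODE M1 (mm9), 10473 of 11450 by current or older symbol, in Python 3.11.15 with pandas 2.3.3 and scipy 1.17.1. Promoters were RefSeq's on GRCm38.p6. The alternatives tried were 0.1 as the added constant, all genes without a filter, quantile normalization, a median shift, a replicate block, a fit of the 8 libraries at 8 and 24 h, no trend, a minimum of 1 on the log2 scale, each library left out, higher scoring peaks, and lamin B1 peaks within 500 bp of the TSS. A fit without small RNA genes was added after seeing the data.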

Additional observations from a re-analysis of the deposited data

Results flagged for a closer look

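The KD effect differed between 8 h and 24 h by the limma interaction for 35 genes. Among the genes named by rule and reported here, the difference (24 h minus 8 h, log2 scale) was negative for Sprr2a1 (-4.10), Sprr2b (-3.22), Alb (-3.08), Aldh3a1 (-1.10), Slco2a1 (-0.86), Lama3 (-0.64), Tspan8 (-0.54), Ifi27l2b (-0.53) and Mafk (-0.50). It was positive for Tpi1 (0.39), Lgals2 (0.77), Hnf4a (0.97), Anxa10 (1.07), Anks4b (1.29) and Srpx2 (1.39). With 2 libraries per group, no library could be tested as an outlier.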

How the results depend on the processing

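The 35 interaction calls became 56 without a filter on low values (35.7% higher in place of 25.7%), 23 with 0.1 added to the FPKM and 18 with a minimum of 1 on the log2 scale, where KD effects numbered 92 at 8 h and 61 at 24 h. The numbers with quantile normalization (45), the fit of 8 libraries (37), no trend (40) and no small RNA genes (40, chosen after seeing the data) stayed within 1.5 times. Leaving out each library in turn gave 17 to 2138 interaction calls, 2330 to 5257 KD effects at 8 h and 1205 to 4487 at 24 h. The highest counts for the interaction and for 24 h came without KD replicate 1 at 24 h (44.3% of the interaction calls higher), and the highest for 8 h without KD replicate 2 at 24 h. A fit without a library also has fewer residual degrees of freedom.

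The class sizes moved as follows. Effects gone by 24 h numbered 11 with 0.1 added, 29 with quantile normalization, 12 with the minimum of 1 and 9 to 665 when a library was left out. New effects numbered 4 with a median shift, 12 without a filter, 1 with 0.1 added, 4 with quantile normalization, 6 without small RNA genes and 1 to 830 when a library was left out. Turned effects numbered 2 with a median shift, 5 without a filter, 3 with quantile normalization, 2 without small RNA genes, 0 with the minimum of 1 and 0 to 294 when a library was left out. Kept effects numbered 4 with the minimum of 1 and 4 to 317 when a library was left out. Members of the gene lists called by the interaction numbered 2, and 5 with quantile normalization, 4 with a median shift and 0 to 184 when a library was left out. The cause of these changes was not tested.

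Of 442 interactions of the named genes under other settings, none changed sign while called. The minimum of 1 on the log2 scale reuses the main value and can only take a call away. Leaving out a library could not turn the sign of a called gene, so neither setting tests the sign. For the 17 called ones, 194 of 289 kept the call and 95 lost it. Of 230 recomputed list medians 46 moved, and 17 crossed 0, and 6 of 18 recomputed peak shares moved. With a replicate block, 36 genes passed the interaction and 2 effects turned. Deviations of same-numbered control and KD libraries correlated at -0.113 at 8 h and 0.368 at 24 h, so the numbers were not taken to pair the samples. Read depth is unknown, so how many fragments lie behind a value under 1 FPKM is not known.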
